A study of Mus musculus with 16 samples.

Results

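Reduced representation bisulfite sequencing (RRBS) of embryoid bodies (EBs) compared 2 libraries of EBs in which β-catenin was silenced with 2 libraries of control EBs. These 4 libraries, of 16 in the series, were chosen by their titles, which name EB shβcat #1 and EB shCtrl. Both groups were EBs at day 8, grown from E14 mouse embryonic stem cells (mESCs) of young passage, a 129/Ola line, that had been transduced with pLKO lentiviral vectors. The shβcat EBs carried a short hairpin RNA against β-catenin and the shCtrl EBs a control hairpin, and no other allele or agent separated the groups. To form EBs, cells were placed in hanging drops for 2 days without LIF, the factor that keeps mESCs undifferentiated, and then grown in suspension and on gelatin. The model is limited in that only construct #1 was sequenced in 1 cell line, and in that the study describes EBs of silenced cells as falling apart early in differentiation. DNA methylation does not measure expression, so neither the silencing of Ctnnb1, the gene of β-catenin, nor the cell types of the EBs could be checked here. In bulk EBs, a change in the share of cells of a type cannot be told apart from a change of methylation within cells. The same 2 hairpins in undifferentiated mESCs, with 2 libraries each, served for comparison.

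In the canonical Wnt pathway, ligands that bind Frizzled receptors release β-catenin from the AXIN/APC/GSK3 complex that degrades it, and β-catenin then enters the nucleus and activates target genes with TCF/LEF factors. The pathway is known for its need in forming mesoderm and endoderm, and Axin2, T and Sp5 are among its best known target genes. During differentiation of pluripotent cells, DNMT3A and DNMT3B add methyl groups to CpGs that were free of them, DNMT1 copies the methylated state at replication, and CpG islands at gene starts mostly stay unmethylated. The comparison addresses whether CpGs, windows and genes outside the imprinting control regions (ICRs) differ in EBs after silencing, and in which kind of sequence.

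A CpG entered where it had at least 10 reads, both strands summed, in all 4 EB libraries, which left 824274 CpGs. The shCtrl libraries held 1121499 and 1000401 CpGs, read a median of 22 and 33 times, and the shβcat libraries 1152971 and 919852, read a median of 26 and 35 times. At 10 reads a single CpG moves in steps of 10 percentage points, so most values below are over windows, promoters or classes of CpGs. Across the common CpGs, Pearson's r was 0.981 between the shCtrl and 0.977 between the shβcat libraries, and 0.972 to 0.978 between groups, where CpGs are not independent. No library stood apart by this measure. The labels do not say whether the replicates came from separate cultures, so p-values measure only the spread between these samples. On mitochondrial CpGs, which are mostly unmethylated, 0.289% and 0.283% of the reads were methylated in shCtrl and 0.338% and 0.373% in shβcat EBs.

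The sequences on which the results turn are given first, on the plus strand of mm9 (NCBIM37), with the CpGs that were read in all 4 libraries in capitals. In the first 6 the methylation was higher, and in the last 2 lower, in shβcat EBs. The Eomes sequence (chr9:118377664-118377811) lies 5′ of the gene and outside any annotated gene, and is shown because its window had the largest rise. The sequences near 1700001O22Rik (chr2:30640218-30640374), Gm10272 (chr10:77140417-77140715) and Msx1 (chr5:38285049-38285235) are intergenic and belong to the longest runs of changed CpGs. The Axin2 (chr11:108783986-108784152) and Pax6 (chr2:105518061-105518301) sequences are intronic and lie in promoters that passed the test. The Sars sequence (chr3:108236409-108236611) is intronic, and the one near Gm5146 (chr17:23685730-23685913) is intergenic.
Eomes: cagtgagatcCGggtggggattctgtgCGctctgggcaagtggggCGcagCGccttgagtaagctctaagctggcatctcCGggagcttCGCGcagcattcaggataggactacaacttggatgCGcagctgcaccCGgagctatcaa
near 1700001O22Rik: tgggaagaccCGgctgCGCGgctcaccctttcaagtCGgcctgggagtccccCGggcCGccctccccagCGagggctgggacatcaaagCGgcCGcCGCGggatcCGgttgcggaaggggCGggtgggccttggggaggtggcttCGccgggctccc
near Gm10272: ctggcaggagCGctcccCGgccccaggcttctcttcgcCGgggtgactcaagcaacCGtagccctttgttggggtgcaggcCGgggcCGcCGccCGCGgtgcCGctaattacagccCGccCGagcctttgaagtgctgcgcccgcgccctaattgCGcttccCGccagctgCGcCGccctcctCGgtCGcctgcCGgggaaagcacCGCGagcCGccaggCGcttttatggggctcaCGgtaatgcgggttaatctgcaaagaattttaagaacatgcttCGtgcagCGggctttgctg
near Msx1: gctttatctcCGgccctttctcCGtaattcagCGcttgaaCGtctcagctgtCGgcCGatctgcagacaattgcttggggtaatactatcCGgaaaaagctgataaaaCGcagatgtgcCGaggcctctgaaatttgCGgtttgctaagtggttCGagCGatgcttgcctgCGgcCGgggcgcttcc
Axin2: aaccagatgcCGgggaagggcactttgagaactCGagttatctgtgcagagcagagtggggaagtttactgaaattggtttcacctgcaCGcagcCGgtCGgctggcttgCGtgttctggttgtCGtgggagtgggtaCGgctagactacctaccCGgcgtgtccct
Pax6: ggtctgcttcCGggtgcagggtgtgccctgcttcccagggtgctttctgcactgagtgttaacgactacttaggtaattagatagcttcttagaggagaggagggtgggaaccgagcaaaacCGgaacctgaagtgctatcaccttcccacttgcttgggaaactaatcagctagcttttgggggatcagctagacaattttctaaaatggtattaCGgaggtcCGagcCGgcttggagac
Sars: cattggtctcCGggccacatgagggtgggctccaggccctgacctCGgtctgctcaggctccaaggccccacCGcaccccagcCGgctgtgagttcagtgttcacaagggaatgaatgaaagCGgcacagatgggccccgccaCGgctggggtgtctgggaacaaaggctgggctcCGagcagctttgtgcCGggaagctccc
near Gm5146: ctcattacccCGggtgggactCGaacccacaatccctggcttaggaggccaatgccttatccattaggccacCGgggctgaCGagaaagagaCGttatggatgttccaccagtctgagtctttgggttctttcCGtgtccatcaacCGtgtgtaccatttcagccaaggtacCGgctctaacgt

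Of the capitals, all 9 CpGs of the Eomes sequence were higher in the mean of the shβcat EBs, by 14.9 to 41.8 points, and so were all 14 near 1700001O22Rik, by 19.13 to 50.2 points. The 26 CpGs near Gm10272 averaged 7.17% and 10.3% in the shCtrl and 34.0% and 33% in the shβcat libraries. The 14 near Msx1 averaged 32.0% and 32.7% against 60.3% and 59.7%. In the last pair the order was turned, with 50.2% and 47.0% in the shCtrl and 26.0% and 19.8% in the shβcat libraries over 8 CpGs of Sars. Over the 8 CpGs near Gm5146 the values were 59.7% and 58.5% against 21.6% and 40%, so that the shβcat replicates differed there.

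The mean methylation of all common CpGs did not separate the groups. It was 34.7% and 35.1% in the shCtrl and 34.4% and 34.8% in the shβcat libraries, a difference of -0.303 points with SDs of 0.252 and 0.322 (n = 2 each). With 2 libraries against 2, the smallest two-sided p that an exact permutation test allows is 0.33, and means over classes of CpGs are therefore given as descriptions.

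Under this flat average, CpGs that started out low were higher, and CpGs that started out high were lower, in shβcat EBs. The starting level was the mean of the 2 mESC shCtrl libraries, which take no part in the comparison. CpGs that started at 90-100% had 91.7% and 91.8% in shCtrl and 87.0% and 87.4% in shβcat EBs, a difference of -4.56 points (124098 CpGs, SDs 0.134 and 0.293). CpGs that started at 70-90% had 87.6% and 87.9% against 83.4% and 83.9%, a difference of -4.10 points (94508 CpGs). In both classes the groups lay apart by many times the gap between replicates. CpGs that started at 30-70% overlapped between groups, with 68.7% and 69.8% against 69.2% and 70.4% (64188 CpGs). CpGs that started at 10-30% had 36.5% and 38.5% in shCtrl and 40.1% and 42.5% in shβcat EBs (53620 CpGs), a difference of 3.76 points. CpGs that started at 0-10%, the largest class with 454487 CpGs, had 3.44% and 3.5% against 4.48% and 4.56%, a difference of 1.05 points. The 10-30% class was at 19% in mESC shCtrl, so that its level was already higher in EB shCtrl and higher again in shβcat EBs. The higher share of methylated mitochondrial reads in shβcat EBs, 0.356% against 0.286% in the mean, went the same way as the 0-10% class, and its part in that difference was not tested.

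**Figure D1:**
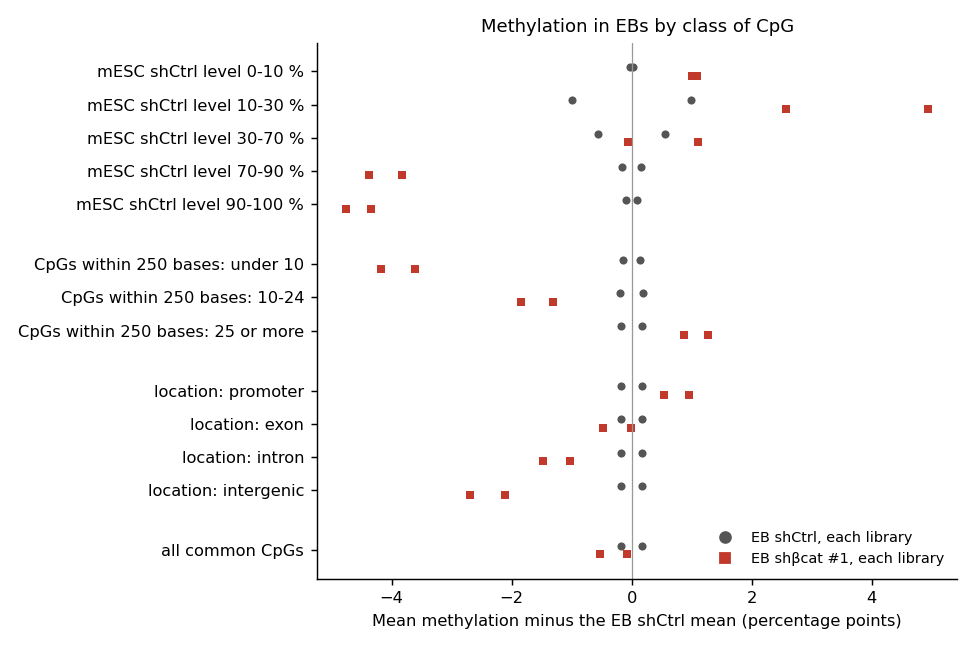
Mean methylation of each EB library by class of CpG, in percentage points from the mean of the 2 EB shCtrl libraries, where grey circles are EB shCtrl and red squares EB shβcat #1 libraries. Both shβcat libraries lay over 3.5 points below the control mean for CpGs that started at 70-90% or 90-100%, and above it for CpGs that started at 0-10% or 10-30%, while all common CpGs overlapped.

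The same split appeared by CpG density and location. CpGs with fewer than 10 CpGs within 250 bases on either side had 84.2% and 84.5% in shCtrl and 80.2% and 80.7% in shβcat EBs, a difference of -3.89 points (117003 CpGs). At 10-24 CpGs the values were 72.3% and 72.7% against 70.7% and 71.2%, a difference of -1.58 points, and at 25 or more, as in CpG islands, they were 7.36% and 7.72% against 8.42% and 8.82%, a difference of 1.08 points. Taken over all starting levels, sparse CpGs were thus lower and dense CpGs higher in both shβcat libraries. Intergenic CpGs had 67.6% and 68.0% against 65.1% and 65.7% (-2.41 points) and intronic CpGs 62.5% and 62.8% against 61.2% and 61.6% (-1.25 points). Promoter CpGs had 8.64% and 9% against 9.37% and 9.78% (0.75 points), and exonic CpGs overlapped at 58.2% and 58.5% against 57.9% and 58.3%. Within a class of starting level, however, the direction mostly went with the level and not with density. Dense CpGs (25 or more) that started at 70-90% were lower by -1.82 points, and sparse CpGs (under 10) that started at 10-30% were higher by 3.23 points. Only for CpGs that started at 30-70% did the sign differ with density. There it was -1.07, 0.412 and 1.98 points from sparse to dense, with overlapping groups at 10-24 and at 25 or more. Among CpGs that started at 90-100%, the difference was -5.08 points at a density under 10, -4.24 at 10-24 and -3.38 at 25 or more, and among those that started at 0-10% it was 2.48, 2.50 and 0.913 points.

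Few single CpGs passed the test of the reads, a binomial model, in which a call needed an adjusted p below 0.05 and group means over 25 points apart. 168 CpGs were lower (0.0204% of 824274) and 484 higher (0.0587%) in shβcat EBs, 0.0791% in all. Without a test, 2540 CpGs (0.308%) were more than 25 points lower and 4413 (0.535%) more than 25 points higher in the group means. The 484 higher CpGs averaged 19.07% and 20.2% in the shCtrl and 56.1% and 54.7% in the shβcat libraries, and 20.8% in mESC shCtrl. The 168 lower ones averaged 80.6% and 75.5% against 39.9% and 41.3%, and 62.7% in mESC shCtrl. These averages restate the choice of the CpGs. CpGs that started at 10-30% were called higher most often, 181 of 53620 (0.338%), and those that started at 70-90% were called lower most often, 37 of 94508 (0.0392%). Whether duplicate reads were removed was not given in the sources used here, and reads copied from 1 molecule would make this test too liberal. Of 398 CpGs within ICRs none was called by this test. With a dispersion estimated for each CpG, 3 CpGs were lower and 14 higher.

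Windows of 1 kb with at least 5 common CpGs gave a clearer picture, with more windows higher than lower. Of 38356 windows, 520 (1.36%) were lower and 925 (2.41%) higher, with an adjusted p below 0.05 and group means over 10 points apart, in a quasi-binomial F test with a dispersion moderated by limma and Benjamini-Hochberg adjustment over all windows. Together these were 3.77% of the windows. In every called window the replicates of the groups did not overlap, which also held for 48.4% of all windows. The number of calls depends on the test. edgeR's quasi-likelihood test called 8 windows lower and 41 higher, all within the calls above, and 824 and 1170 past the same 10 points at an unadjusted p under 0.05. limma on mean CpG percentages called 0 in either direction, with 888 lower and 1189 higher past 10 points at an unadjusted p under 0.05, against 879 and 1268 in the quasi-binomial test. Leaving out 1 library in turn, 27 lower and 180 higher windows passed in every fit, and the library that cost the most calls was EB shCtrl replicate 2, without which 139 windows were lower and 446 higher. Without EB shCtrl replicate 1 there were 285 and 556.

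The windows that were higher had mostly been low to intermediate, and those that were lower mostly highly methylated. A call needs more than 10 points, so windows near the floor had little room to be called lower. Those near the ceiling had little room to be called higher. This limit sets part of the split of calls by level, density and location below. Among windows that started at 10-30% in mESC shCtrl, 451 of 3530 were called higher (12.8%) and 20 lower. Among those that started at 0-10%, 358 of 18147 were higher (1.97%) and 21 lower. At the other end, 248 of 5962 windows that started at 90-100% were called lower (4.16%) and 3 higher, and at 70-90% it was 178 of 5938 lower (3%) and 10 higher. Beyond the calls, 90.3% of all windows in the 90-100% class had a lower mean in shβcat EBs, and 77.6% of those in the 10-30% class a higher one. Windows with a CpG density of 25 or more were called higher in 2.92% and lower in 0.186%, while windows with a density under 10 were called lower in 3.69% and higher in 0.793%. Promoter windows were called higher in 2.03% and lower in 0.215%, and intergenic windows 2.94% and 3.32%. The 520 lower windows lay at a median of 22513 bases from the nearest transcription start, and 8.85% of them lay within 1000 bases. For the 925 higher windows the median was 1720.5 bases and the share 42.4%, close to the 1222 bases and 47.9% of all windows. The lower windows held a median of 6 CpGs and the higher ones 11.

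**Figure D2:**
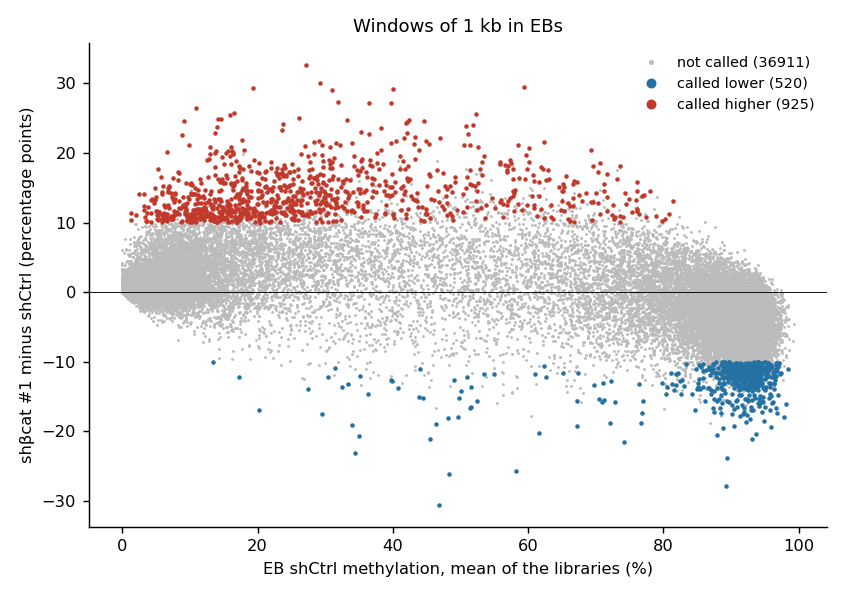
Difference between the group means of EB shβcat #1 and EB shCtrl (percentage points) against the mean methylation of the 2 EB shCtrl libraries (percent), 1 point per 1 kb window. The 925 windows called higher (red) spread over low and intermediate levels, with 669 of them between 10% and 50%, and of the 520 windows called lower (blue) 461 were above 80%. The limit of 10 points leaves windows near either end little room to be called towards that end.

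The largest rise was in a window that lies 9830 bases from the start of Eomes, the gene of a T-box factor that specifies mesoderm and endoderm. Its 12 CpGs (chr9:118377001-118378000, intergenic, within it the Eomes sequence above) had 29.3% and 24.9% in the shCtrl and 59.0% and 60.5% in the shβcat EBs, a difference of 32.7 points (adjusted p = 1.61e-07 in the moderated quasi-binomial test and 0.0365 in edgeR). In the mESC shCtrl libraries it had 41.1% and 37.5%, so the level was lower in control EBs than in mESCs, and higher in shβcat EBs. The promoter of Eomes itself stayed low, at 2.90% and 2.47% against 3.43% and 2.52%.

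Other windows with large rises are named by the gene that holds them, or else by the gene of the nearest start. The share of windows near any kind of gene was not counted. A pair of adjoining windows lay 69678 and 70678 bases from Msx1, a homeobox gene of limb, tooth and neural crest. In the first (chr5:38285001-38286000, 14 CpGs) the values were 29.4% and 29.1% against 59.1% and 59.6% (adjusted p = 6e-07), and in the next (chr5:38286001-38287000, 6 CpGs) 29% and 34.9% against 61.2% and 57.4% (0.00094). An intron of Maml3, which encodes a Mastermind coactivator of Notch signalling, had 35.7% and 37.3% against 62.3% and 65.2% (chr3:51848001-51849000, adjusted p = 8.65e-05). An intron of Rab8b, the gene of a small GTPase of vesicle transport, had 56.4% and 62.4% against 88.5% and 89.2% (chr9:66703001-66704000, adjusted p = 4.62e-05). The differences of these 4 windows ran from 27.2 to 30.1 points, well above the gaps between replicates. The first Msx1 window was also higher in shβcat mESCs, at 39.0% and 38.8% against 27.6% and 23.2% in shCtrl. The Maml3 and Rab8b windows were higher there too. The second Msx1 window was lower there, at 54.0% and 53.7% against 57.3% and 59.3%.

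At a CpG-dense site 11684 bases from 1700001O22Rik, 15 CpGs (chr2:30640001-30641000) had 20% and 18.7% against 48.1% and 49.3% (adjusted p = 7.92e-08). At another, 28888 bases from Gm10272 (chr10:77140001-77141000, 29 CpGs), the values were 9.52% and 12.2% against 38.1% and 36.6% (adjusted p = 6.12e-08). Both sites are intergenic, and the genes at their nearest starts are known by a clone or model name only. The window at the start of Adra1a, the gene of the α1A-adrenergic receptor, had 35.4% and 44.1% against 71.8% and 62.2% (adjusted p = 0.000193). The windows near Tmem90a and in Sh3rf1 completed the 10 largest rises, with differences of 29.1 and 29 points. All 10 passed with any 1 library left out. In edgeR 6 of them passed, and the adjusted p of the others ran from 0.0639 to 0.0845. In mESCs the Adra1a window was also higher in shβcat, at 49.8% and 44.0% against 34.3% and 32.4% in shCtrl. The Sh3rf1 window had 89.3% and 83.1% against 71.1% and 74.5% there, and Tmem90a was higher too. The groups overlapped in mESCs at Gm10272 and at 1700001O22Rik.

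The 10 largest falls were less firm. The window at the start of Cubn, which encodes cubilin, a receptor for vitamin B12 uptake, had 89.3% and 89.1% in shCtrl and 56.8% and 65.9% in shβcat EBs (chr2:13413001-13414000, 5 CpGs in coding exon and UTR, adjusted p = 0.000419, and 0.0439 in edgeR). A window in Sars, the gene of seryl-tRNA synthetase, had 49.4% and 47.2% against 25% and 19.4% (chr3:108236001-108237000, 8 CpGs, adjusted p = 8.05e-05, and 0.044 in edgeR). Both fell by more than 25 points, and both passed with any 1 library left out. In the mESC libraries the Sars window was nearly unmethylated (0.949% and 0.664% in shCtrl), so that control EBs were higher than mESCs and shβcat EBs lay between. Likewise the window 38296 bases from AU018091 (chr7:3207001-3208000) had 1.19% and 0% in mESC shCtrl, 32.8% and 36.1% in EB shCtrl, and 9.49% and 13.3% in EB shβcat (adjusted p = 0.00138). The intergenic window 51808 bases from Txndc5 (chr13:38672001-38673000) had 87.7% and 91.0% against 66.0% and 65.0% (adjusted p = 0.00359), and did not pass without EB shCtrl replicate 2 (0.082). The largest difference, -30.5 points in an intron of Efcab5, rested on a wide spread, with 65.0% and 28.6% in shCtrl against 20% and 12.5%, and did not pass without EB shCtrl replicate 1 (0.44) or EB shβcat replicate 2 (0.133). Of these 10 windows 4 passed with any 1 library left out.

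**Figure D3:**
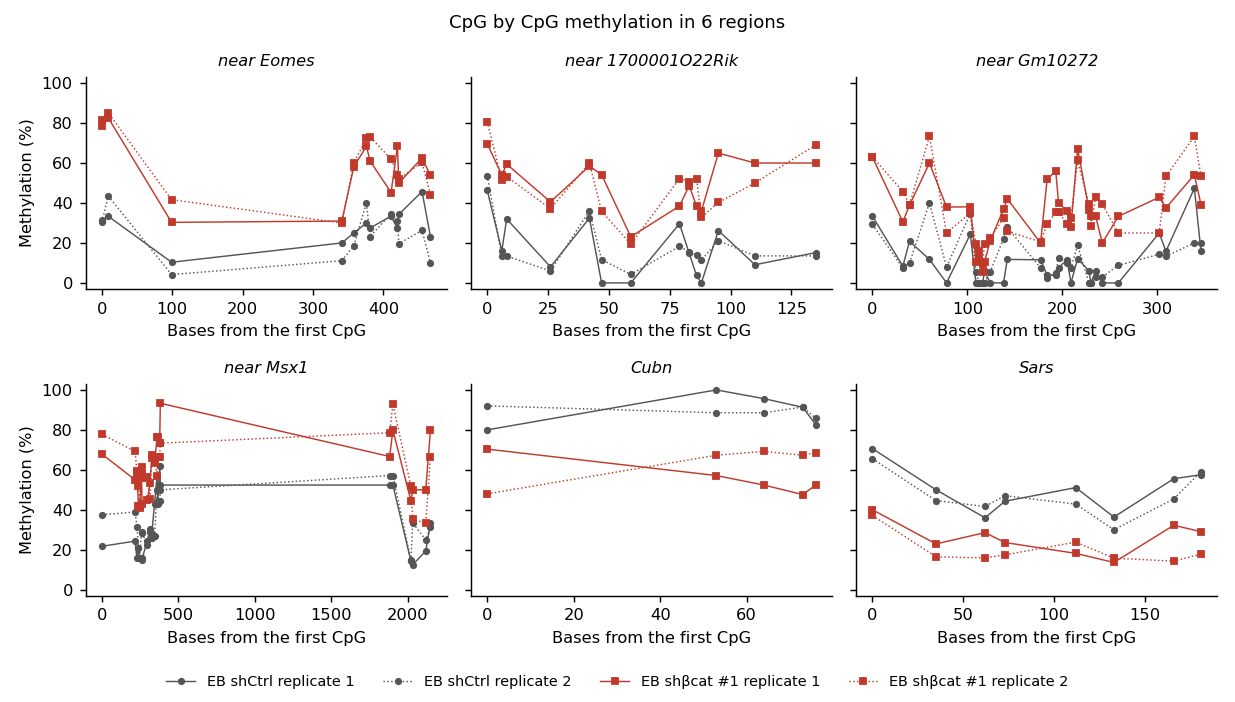
Methylation (percent) of single CpGs against the distance from the first CpG drawn (bases), in 6 regions, with grey circles for EB shCtrl, red squares for EB shβcat #1, solid lines for replicate 1 and dotted lines for replicate 2. Over 4 regions (near Eomes, 1700001O22Rik, Gm10272 and Msx1) the shβcat lines ran above the shCtrl lines at most CpGs, and in Cubn and Sars they ran below.

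By the rule of at least 10 CpGs, less than 2 kb apart, that each differ by more than 25 points in the same direction, 5 regions were hypermethylated and 0 hypomethylated, with no test. They were the sites near Gm10272 (16 such CpGs of 29), Msx1 (15 of 21) and 1700001O22Rik (12 of 14), and regions at the starts of Ror2 (11 of 71) and Esrrg (10 of 54). Ror2 encodes a receptor of Wnt5a and Esrrg an orphan nuclear receptor. The Ror2 region (chr13:53380346-53381572, coding exon and UTR) had 5.45% and 6.47% in shCtrl and 20% and 17.9% in shβcat EBs. The Esrrg region (chr1:189432934-189433553) had 15.9% and 17.9% against 30.4% and 33.3%. With at least 20 reads in each library 1 region was left, and where every replicate of a group had to lie more than 25 points from every one of the other, 0 were. With 5 CpGs in place of 10, 43 regions were higher and 4 lower.

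The supplement of the study lists regions for these same EBs, and 17 of them were looked up. Since they were listed on these libraries, their direction is not independent evidence, and no test is given. 16 held common CpGs, and all 14 listed as hypermethylated had both shβcat libraries above both shCtrl libraries. Among them were Isl2, a LIM homeobox gene of motor neurons, with 18.8% and 18.5% against 31.9% and 31.3%, and Hand1, a basic helix-loop-helix gene of the heart and trophoblast, with 31.5% and 29.6% against 45.6% and 42.1%. The region of Tnfrsf1a, a receptor of tumour necrosis factor, had 53.3% and 59.1% against 77.3% and 82.5%. The smallest difference was that at Gm10000 and Gsc, from 14.1% and 13.9% to 18.7% and 22.1%. Of those listed as hypomethylated, the region near Gm5146 had 57.3% and 52.5% against 28.0% and 34.3%. That of Zfp865 had 52.2% and 52.3% against 42.9% and 44.1%. The Gm5146 region was also lower in shβcat mESCs, at 23.6% and 20.9% against 34.5% and 32.9% in shCtrl, while Zfp865 overlapped there.

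At gene promoters, taken from 1000 bases before to 500 after a start, hypermethylation was again the more frequent call. Of 15353 promoters of 13795 genes, 32 were lower (0.208%) and 252 higher (1.64%), 1.85% in all, in shβcat EBs by the same test and limits as the windows. At any size of difference, 45 were lower (0.293%) and 604 higher (3.93%). The median difference over all promoters was 0.288 points. The median level in shCtrl EBs was 4.42%, so most promoters had no room to fall by the 10 points of a call. The excess of higher over lower calls is partly set by this floor. edgeR called 0 promoters in either direction, with 60 lower and 311 higher past 10 points at an unadjusted p under 0.05, so the promoter calls rest on the quasi-binomial model. With any 1 library left out, 1 lower and 25 higher promoters passed in every fit. Without EB shCtrl replicate 2 the calls were 2 lower and 41 higher, and without EB shCtrl replicate 1 they were 12 and 107.

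The largest promoter rise was that of Gm2301, from 37.8% and 35.5% to 70.7% and 62.9% (lost without EB shβcat replicate 1, adjusted p = 0.0789), followed by Adra1a. A promoter of Pax6, the homeobox gene of eye and forebrain, rose from 16.1% and 12.2% to 42.4% and 35.7% (chr2:105517548-105520524, adjusted p = 0.00146), and Tnfrsf1a rose from 53.4% and 56.3% to 77.8% and 81.2% (chr6:125298380-125300291, adjusted p = 7.99e-05). The Adra1a, Pax6 and Tnfrsf1a promoters passed with any 1 library left out. In mESCs the Tnfrsf1a promoter was also higher in shβcat, at 87.2% and 90.1% against 71.2% and 73.9% in shCtrl. Adra1a was higher there too, while the groups overlapped at this Pax6 promoter. Tmprss2, which encodes a membrane serine protease, had 42.9% and 59.2% against 72.0% and 75.7%, and its call was lost without EB shCtrl replicate 1 (adjusted p = 0.299). Cubn was the only lower promoter that passed in every such fit. The promoter of Th, the tyrosine hydroxylase of dopamine synthesis, had 94.4% and 97.6% against 73.5% and 86.8%, and was lost without EB shβcat replicate 1 (0.36) or EB shCtrl replicate 2 (0.152). The promoter of Cryab, which encodes a small heat shock protein of lens and muscle, had 81.2% and 87.3% against 69.1% and 70.2% and was lost without EB shCtrl replicate 2 (0.488).

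The gene lists were chosen with earlier results of these data known, so a share above that of all promoters is not independent support. Among 67 tested promoters of the Wnt pathway, 3 passed as higher (4.48%, against 1.64% of all promoters) and 0 as lower. Their median was 5.52% in shCtrl EBs, so most of the 67 had little room to be called lower. The 3 that passed were promoters of Axin2, Sfrp5 and Dkk2. A promoter of Axin2, the feedback inhibitor and target gene, rose from 5.79% and 6.76% to 16.2% and 22.1% (chr11:108783495-108784995, adjusted p = 0.00114). It belongs to a start inside the annotated gene, since the Axin2 sequence above, upstream of that start, is intronic. Values at the first start of the gene are not given here. The 12 CpGs of this promoter were at 6.12% and 6.58% in mESC shCtrl and at 7.31% and 7.29% in mESC shβcat. Sfrp5, a secreted protein that binds Wnt ligands, rose from 2.73% and 6.83% to 19.9% and 19.5% (chr19:42276242-42277742, adjusted p = 0.00125). Dkk2, a secreted ligand of the LRP co-receptors, rose from 28.4% and 25.3% to 44.6% and 44.0% (adjusted p = 0.0345). The Sfrp5 call held with any 1 library left out, while Axin2 was just lost without EB shCtrl replicate 2 (0.0527) and came to 9.96 points, under the limit of 10, without EB shβcat replicate 2. Dkk2 was lost in each of the 4 fits (up to 0.335). In edgeR all 3 had an adjusted p between 0.184 and 0.329.

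At any size of difference 10 Wnt pathway promoters passed as higher (14.9%, against 3.93% of all promoters) and 0 as lower. The 7 beyond those named are given here although chosen after their values were seen. They include the ligand genes Wnt1, Wnt2b, Wnt3 and Wnt5a, of which Wnt3 had 5.55% and 7.10% against 13.1% and 16.6% and Wnt2b 8.23% and 9.65% against 17.3% and 17.9%. They also include the target genes T, Sp5 and Cdx1, with 5.88% and 6.96% against 15.8% and 15.4% for Sp5 and 7.24% and 7.60% against 13.2% and 14.7% for T. The median difference over the 67 promoters was 1.06 points, against 0.288 over all. The promoters of Ctnnb1, Axin1 and Apc stayed low, with 3.41% and 4.34% against 4.14% and 4.86% for Ctnnb1, whose promoter did not pass.

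Promoters of lineage genes also passed more often in the direction of a rise. In shCtrl EBs the median was 8.28% for mesoderm and endoderm and 9.12% for ectoderm and neural promoters, against 4.42% of all. The shares below were not matched for level, and these lists too were chosen with earlier results known. Of 22 mesoderm and endoderm promoters, 2 passed as higher (9.09%, against 1.64% of all promoters), and 5 at any size (22.7%, against 3.93%), with a median difference of 1.26 points. Mesp1, a gene of early cardiac mesoderm, rose from 6.73% and 6.05% to 12.5% and 23.4%, and Tbx6, a gene of paraxial mesoderm, from 50.4% and 39.5% to 62.3% and 58.3%. Both were lost without a library, Mesp1 without any but EB shβcat replicate 1 (up to 0.53) and Tbx6 without EB shCtrl replicate 2 (0.885). At any size T, Mixl1 and Gata5 passed too, with 7.33% and 6.63% against 13.2% and 13.9% for Mixl1. Of 31 ectoderm and neural promoters, 3 passed as higher (9.68%), of Otx2 and of Pax6 with 2 promoters, and 9 passed at any size (29%, read against the same 1.64% and 3.93%), with a median difference of 3.78 points. Otx2, a gene of the epiblast and anterior brain, rose from 12.9% and 16.8% to 25.2% and 25.7% (adjusted p = 0.0159) and was lost without either EB shCtrl library (up to 0.394). The second promoter of Pax6 (chr2:105520869-105525979), from 36.4% in both libraries to 45.7% and 53.6%, was lost without any but EB shβcat replicate 1 (up to 0.385). The others at any size were 2 more promoters of Pax6 and those of Pax3, En1, Nkx2-1 and Nkx2-2. Promoters of mesoderm, endoderm and ectoderm were thus among the calls, and a difference between the lists was not tested.

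**Figure D4:**
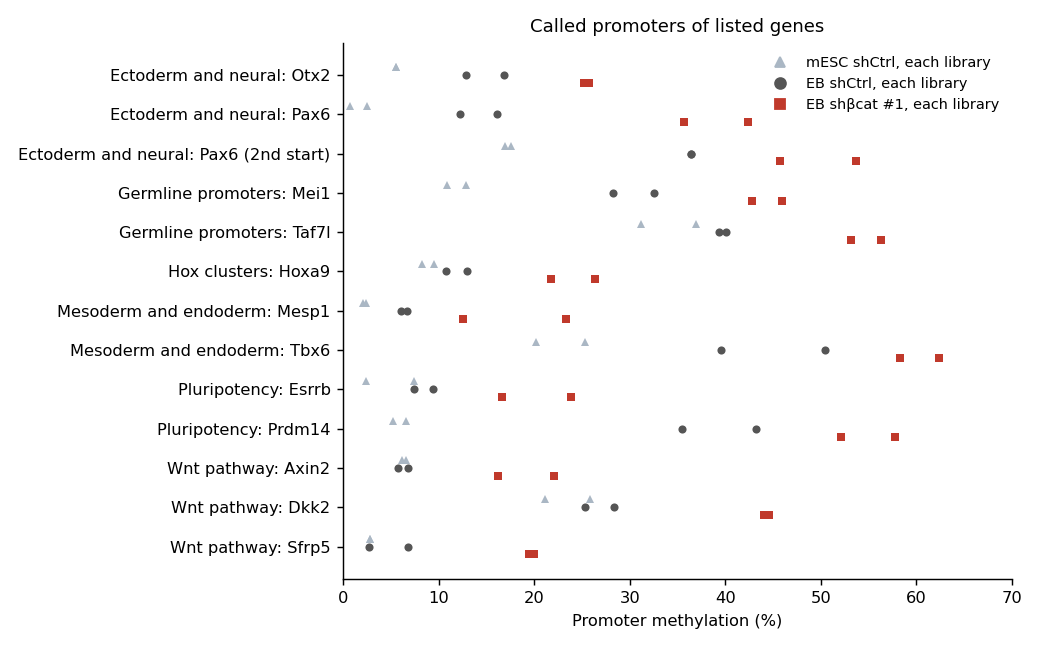
Promoter methylation (percent) of the 13 promoters of listed genes that were called, with a point for each library, where light triangles are mESC shCtrl, grey circles EB shCtrl and red squares EB shβcat #1. In each of the 13, both red squares lie to the right of both grey circles.

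Of 18 promoters of pluripotency genes, 2 passed as higher (11.1%, against 1.64% of all promoters), both of factors of the naive state. Esrrb rose from 7.38% and 9.44% to 16.7% and 23.9%, and Prdm14 from 43.2% and 35.5% to 52.1% and 57.7%, where mESC shCtrl had 5.17% and 6.54%. Control EBs were thus already far above mESCs at Prdm14, and shβcat EBs were higher again. Both calls were lost without any 1 library other than EB shβcat replicate 1 (up to 0.237 for Esrrb and 0.66 for Prdm14). Tbx3, which also acts in mesoderm, was the only listed promoter that passed as lower at any size, with 29.7% and 24.9% against 17.1% and 19.9% (adjusted p = 0.0329). Of 42 Hox promoters 1 passed as higher (2.38%, near the 1.64% of all promoters), that of Hoxa9, from 12.9% and 10.8% to 26.4% and 21.7%, which was lost without EB shCtrl replicate 2 (0.269) and came to 9.89 points without EB shβcat replicate 1. At any size 7 Hox promoters passed as higher (16.7%, against 3.93%), in the HoxA and HoxC clusters from Hoxa9 to Hoxa11 and Hoxc8 to Hoxc11. Of 26 germline promoters, which are mostly methylated, Mei1 and Taf7l passed as higher (7.69%, against 1.64%), with 28.2% and 32.5% against 42.8% and 45.9% for the meiosis gene Mei1. Both were lost without either EB shCtrl library (up to 0.314 for Mei1 and 0.334 for Taf7l) and without 1 of the shβcat libraries. The median of the germline list went the other way, at -2.54 points, and 18 of its 26 promoters had a lower mean. None of the 31 promoters of the DNA methylation machinery or the 39 of imprinted genes passed in the quasi-binomial test. With 1.85% of all promoters called in either direction, 0 in lists of this size is near that share. At an unadjusted p under 0.05 in that test there were 0 lower and 3 higher, and 1 lower and 5 higher. The share of all promoters at that limit is not given here. In edgeR none of these lists had a promoter with an adjusted p under 0.05.

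The ICRs differed little on average. Over the 19 ICRs with a value, the libraries averaged 64.1% and 67.3% in shCtrl and 62.9% and 65.5% in shβcat EBs, and 7 ICRs were higher and 12 lower. The Impact ICR fell from 47.7% and 59.5% to 37.2% and 41.7% (adjusted p over windows and ICRs = 0.00778). It was the only call among the ICRs at any size (5.26%), and it was not called without EB shCtrl replicate 2. Of all 38356 windows, 2840 had an adjusted p below 0.05 at any size, so the share of ICRs called is not above that of windows. The largest difference upwards was at Igf2r, with 50.6% and 60.4% against 65.6% and 65.4% (0.0634).

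The differences of shβcat EBs were compared with those of the same hairpin in mESCs over 37065 windows read in all 8 libraries. In mESCs 55 windows were lower (0.148%) and 488 higher (1.32%), where the libraries averaged 31.8% in shβcat and 30.6% in shCtrl. Of the windows called lower in EBs, 495 could be read in mESCs, with a median difference of 1.45 points there, and 369 had a higher and 126 a lower mean in mESC shβcat. Of those called higher in EBs, 916 could be read, with a median difference of 1.69 points, 722 with a higher mean and 36 called higher in mESCs too. Over all 37065 windows the mESC median was 0.367 points, with 23765 higher and 13195 lower in mESC shβcat. A higher mean in mESCs was thus the more frequent direction among all windows too. Most windows called in EBs were therefore not called in mESCs, which by itself does not show that the effects differ. By the interaction of silencing and cell state, 313 windows (0.844%) differed with the EB change the lower and 83 (0.224%) with the EB change the higher. 105 of these were among the windows lower in EBs and 66 among the higher ones. The interaction depends on the test and on single libraries. edgeR called 0 in either direction, with 2424 and 499 past the size limit at an unadjusted p under 0.05, and leaving out 1 library gave from 1 to 596 and from 2 to 195. It fell to 1 and 2 without EB shCtrl replicate 2, and to between 1 and 27 for lower and 2 and 9 for higher without EB shCtrl replicate 1 or any 1 mESC library.

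**Figure D5:**
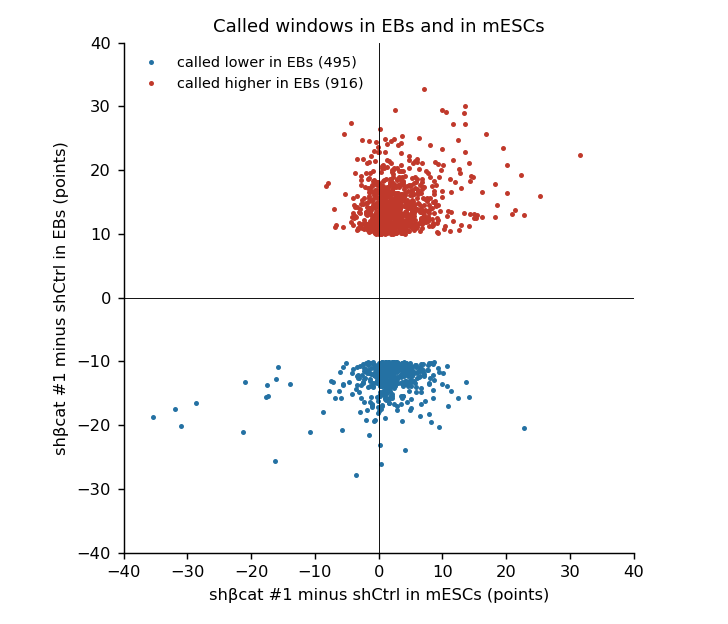
Difference between shβcat #1 and shCtrl means in EBs against that in mESCs (both in percentage points), 1 point per window called in EBs, with 916 called higher in red and 495 called lower in blue. Most points of both colours lie close to the vertical line at 0 in mESCs, with medians of 1.69 and 1.45 points there.

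By class, sparse and intergenic CpGs were lower in shβcat EBs and higher in shβcat mESCs. At a density under 10 the difference was -3.89 points in EBs and 3.04 points in mESCs, and in intergenic CpGs -2.41 and 2.53 points. The windows called higher in EBs were mostly higher in control EBs than in mESCs, with EB shCtrl above mESC shCtrl in 845 of 916 (92.2%), with a median of 9.33 points, against 75.6% of all windows. In 893 of the 916, shβcat EBs lay farther from mESC shCtrl than control EBs did. The call nearly fixes this count, since a window already above mESC shCtrl that is higher again must lie farther from it. For the windows called lower it was 363 of 495. These counts share the EB shCtrl values with the comparison. The last 2 have no count over all windows beside them, and all are a description.

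The called windows were also searched for the letters CTTTGAT or CTTTGTT on both strands, 2 forms of the TCF/LEF motif that do not overlap each other. Either form was found in 237 of the 925 higher windows (25.6%), in 169 of the 520 lower windows (32.5%) and in 24.7% of all windows. The forms are poor in C and G, and the lower windows had a mean GC content of 49.8% against 55.1% of all. Among windows with a CpG density of 10-24, the shares were 29.2% in higher, 32.9% in lower and 28.2% in all windows. At a density of 25 or more, which held 566 of the higher windows but only 36 of the lower ones, they were 23.3%, 27.8% and 20.7%. There the 2 forms went opposite ways in the higher windows. CTTTGAT was in 12.7% against 8.17% of all, and CTTTGTT in 12.2% against 13.8%. None of these differences was tested. Of the printed sequences, the one near 1700001O22Rik holds CTTTGAT, and those near Gm10272 and in Sars hold CTTTGTT.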

How the data were processed

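RRBS libraries were made with the NuGEN Ovation RRBS Methyl-Seq system. Per the submitters' processing notes, CASAVA 1.8.2, Trim Galore 0.2.8 and Bismark 0.7.9 were used with mm9. The authors deposited 2 values per CpG cytosine, a read count and a percent methylated, not normalized and with replicates not pooled. Every cytosine in the files had at least 10 reads. The handling of duplicate reads was not given in the sources used here. The files of 8 libraries were used, and those of the other 8 were not.

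Methylated reads were computed from count and percent, which gave whole numbers within 0.001 for 100% of the cytosines, and the strands were summed. All cytosines lay on CpGs of NCBIM37, and genes came from GENCODE vM1. For single CpGs, a binomial model with 1 common overdispersion (1.17) was used with chi-square p-values. For windows, promoters and ICRs, reads were summed and an F test of a quasi-binomial model was used, its dispersion moderated by limma with a floor of 1. A read over several CpGs counts at each. Adjustment was by Benjamini-Hochberg over all features. For ICRs it was over windows and ICRs together, in place of the ICRs alone that had been planned. Promoters whose starts overlap were merged per gene.

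The libraries held from 29954330 to 40519010 reads on CpGs in EBs. Same-numbered replicates were not taken as pairs, since the labels do not say so. The correlation of their deviations over CpGs was 0.0528. With only 2 pairs and counting noise in each CpG, it cannot decide whether they share a batch. Reads of replicate 1 over replicate 2 were raised on chromosomes 1, 8 and 14 in both EB groups, as given under the other observations. On simulated reads with known changes, the window test recovered 69% of 15-point and 98% of 30-point changes over 38356 windows, with 4.02% false calls, and edgeR 40% and 82% with 0 false calls. The test of 824274 single CpGs recovered 29% of 30-point and 91% of 60-point changes, and the interaction over 37065 windows 48% of 15-point and 75% of 30-point changes. The simulated reads took their dispersion from the values that these models fitted to the data. The rates therefore hold only where the models do, and do not measure the false calls among the real windows or CpGs.

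Named were the regions of the 10-CpG rule, those listed for EBs in the supplement of the study, the 10 called windows and promoters with the largest difference in each direction, called promoters of the gene lists, and the ICRs with the largest changes. Of these, the report gives the ones each result turns on. The members and gene lists were chosen with earlier results of these data known. Alternatives varied the read, CpG and difference minimums, tile and promoter sizes, strands, a coverage cap, other tests, the replicate block and each library left out. One, a coverage cap with read weighting, was added after the data were seen. Where a library was left out, the lone library of its group was assumed to vary like the others. The software was R 4.3.3 with limma 3.58.1 and edgeR 4.0.16, and Python 3.11.15 with scipy 1.17.1, numpy 2.4.6, matplotlib 3.10.9 and pandas 2.3.3.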

Additional observations from a re-analysis of the deposited data

Results flagged for a closer look

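The change after silencing differed between EBs and mESCs in 313 windows with the EB change the lower and 83 with the EB change the higher, by the interaction test. Among the named windows this held for Txndc5 (chr13:38672001-38673000, adjusted p of the moderated quasi-binomial F test of the interaction = 0.04), Eomes (chr9:118377001-118378000, 0.00688), 1700001O22Rik (chr2:30640001-30641000, 0.0156), Msx1 (chr5:38286001-38287000, 0.0234) and Gm10272 (chr10:77140001-77141000, 0.00175). At Eomes the mESC libraries had 41.1% and 37.5% in shCtrl and 43.6% and 49.1% in shβcat, a smaller gap than the one in EBs. At Gm10272 they had 14.4% and 12.8% against 15.5% and 12%. edgeR's interaction called 0 windows.

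For 4 classes of CpGs both shβcat libraries moved one way in EBs and the other way in mESCs, and these differences between EBs and mESCs were not tested. At a density under 10 the difference was -3.89 points in EBs and 3.04 in mESCs, and at 10-24 it was -1.58 and 2.32. For introns it was -1.25 and 2.03 points, and for intergenic CpGs -2.41 and 2.53.

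Reads on mitochondrial CpGs, which no comparison used, were methylated in 0.338% and 0.373% in EB shβcat replicates 1 and 2, above the 0.289% and 0.283% of EB shCtrl. In mESCs the shares were 0.319% and 0.290% in shCtrl and 0.339% and 0.274% in shβcat, which overlap. These shares cover counting error only.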

How the results depend on the processing

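The direction of the class means, except the 30-70% start, and of all 52 named windows and promoters was kept in each alternative run. Counts were less stable. Lower and higher single CpGs were 56 and 181 with strands apart, 3 and 14 with a dispersion per CpG, and 346 and 865 at 10 points, and 104 CpGs were lower at 20 reads. Without 1 library they ranged from 90 to 225 and from 159 to 511. Windows were 8 and 41 with edgeR, 0 and 0 with limma on percentages (888 and 1189 past 10 points at an unadjusted p under 0.05), and 4 and 14 at 25 points. Lower windows were 216 at 20 reads and 1439 with 3 CpGs. Without 1 library windows ranged from 139 to 637 lower and 446 to 1049 higher. The interaction gave 196 lower windows at 20 reads, 0 and 0 with edgeR (2424 and 499 past the size limit, unadjusted), and without 1 library 1 to 596 and 2 to 195. Promoters were 0 and 0 with edgeR (60 and 311 past 10 points, unadjusted), 1 and 3 at 25 points, and 10 lower at 20 reads, and without 1 library ranged from 2 to 43 and from 41 to 288. Regions by the 10-CpG rule were 4 and 43 with 5 CpGs, 2 and 12 with replicates summed, 1 higher at 20 reads and 0 higher with every replicate past 25 points. Without 1 library they were 1 to 2 lower and 7 to 10 higher. Classes taken from the EB libraries themselves gave 0.492 points at 0-10%, 3.54 at 30-70% and -2.45 at 90-100%, and intergenic CpGs gave -2.05 at 20 reads. Without 1 library the 30-70% class ranged from -0.0598 to 1.11 and turned to -0.0419 without EB shCtrl replicate 1. The mean ICR difference of -1.52 points ranged from -3.11 to 0.0775, and ICRs called from 0 to 1 in either direction. The cause of these changes was not tested.

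The replicate numbers as a block gave 63 lower promoters, 127 and 35 interaction windows, and 2 lower and 1 higher ICRs (Impact, Commd1 and Igf2r, adjusted as before and at any size), and changed no call of the 52 named windows and promoters. The labels do not say that the numbers pair the samples. Of the 52, 19 passed with any 1 library left out and 8 passed in edgeR. At 2 libraries a group, and with 10 reads as the least, changes under 15 points in a window or 60 points in a single CpG are often missed, so features that were not called are not shown to be unchanged.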

Other observations

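Sequencing depth along the genome was not the same in the replicates. The median reads of replicate 1 over replicate 2, each scaled to its own library, were 1.04 on chromosome 1, 1.05 on chromosome 8 and 1.06 on chromosome 14 in EB shCtrl, and 1.07, 1.09 and 1.10 in EB shβcat. In mESC shCtrl the ratios on these chromosomes were 0.966, 0.959 and 0.935. The other autosomes of the EB libraries had ratios from 0.97 to 1.01. By chromosome, the difference in mean methylation between shβcat and shCtrl EBs ran from -0.662 points on chromosome X to 0.104 on chromosome 19.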
